A study of Mus musculus with 14 samples.

Results

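The 1425 gene bodies described here are those of the mouse olfactory receptor genes (Olfr, 1105 gene bodies) and of the vomeronasal receptor genes of types 1 and 2 (Vmn1r, 200, and Vmn2r, 120), out of 22470 gene bodies of the authors' deposited table of chromatin scores. They were chosen by symbol alone. They are set against the 21032 remaining gene bodies, which leave out 13 gene bodies of the mitochondrial genome. The cells were C57BL/6 mouse tumor-derived cells at passages 6 to 8, carrying either a guide RNA against Nsd3 (labelled sgNSD3) or a control guide (labelled sgControl). NSD3 is a histone H3 lysine 36 methyltransferase. The 14 samples comprised 6 of RNA, 3 per condition, and 8 of chromatin profiled by CUT&RUN, a method that cuts and sequences DNA at antibody-bound sites, with 4 samples for H3K36me2, 2 for H3K27me3 and 2 for IgG. The labels name neither the tumor type nor the number of clones or cultures behind the samples, so the p-values refer to the spread among these libraries only, and that spread may be technical.

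Odorant receptors and vomeronasal receptors are G protein-coupled receptors of the nose. A mature olfactory sensory neuron expresses a single odorant receptor allele, and the many others are packed into heterochromatin in large genomic clusters. Vmn1r receptors signal through the G protein subunit Gnai2 and Vmn2r receptors through Gnao1, both ahead of the channel Trpc2. H3K27me3 is the mark of Polycomb repression, written by PRC2 with its catalytic subunit Ezh2, whereas H3K36me2 is written mainly by the NSD enzymes over active and intergenic chromatin and makes nucleosomes poor substrates for PRC2.

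The start regions of receptor genes are shown because, as a group, they differ in base composition from those of other genes. Each RefSeq window (GRCm38.p6) holds 250 bases before and 50 bases after the annotated start, written 5′ to 3′ on the gene's strand. Capitals mark every CG dinucleotide and, where it lies exactly at the annotated start, the ATG start codon. Olfr452 had the highest and Olfr1418 the lowest H3K27me3 score of the receptors, Vmn1r43 had the highest score in the second H3K36me2 column, and Olfr544 had the highest RNA level. The windows lie at chr6:42789791-42790090 on the plus strand for Olfr452, chr19:11855902-11856201 on the minus strand for Olfr1418, chr6:89870480-89870779 on the minus strand for Vmn1r43 and chr7:102488258-102488557 on the minus strand for Olfr544.
Olfr452: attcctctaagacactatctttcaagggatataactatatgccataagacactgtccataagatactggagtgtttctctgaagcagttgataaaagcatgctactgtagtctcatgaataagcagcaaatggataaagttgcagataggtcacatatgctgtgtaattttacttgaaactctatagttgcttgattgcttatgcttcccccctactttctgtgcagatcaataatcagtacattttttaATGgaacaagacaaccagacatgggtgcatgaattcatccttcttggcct
Olfr1418: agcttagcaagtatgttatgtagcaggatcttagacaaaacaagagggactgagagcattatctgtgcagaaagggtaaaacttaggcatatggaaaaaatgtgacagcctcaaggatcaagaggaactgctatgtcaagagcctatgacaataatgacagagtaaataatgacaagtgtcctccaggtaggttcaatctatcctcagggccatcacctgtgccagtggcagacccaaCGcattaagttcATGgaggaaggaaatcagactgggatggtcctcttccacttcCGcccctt
Vmn1r43: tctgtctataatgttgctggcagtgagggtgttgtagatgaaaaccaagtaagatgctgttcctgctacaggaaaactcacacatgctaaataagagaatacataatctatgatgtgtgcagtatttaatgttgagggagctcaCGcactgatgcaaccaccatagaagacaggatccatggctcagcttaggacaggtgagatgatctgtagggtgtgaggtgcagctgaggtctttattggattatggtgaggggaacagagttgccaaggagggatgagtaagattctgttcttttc
Olfr544: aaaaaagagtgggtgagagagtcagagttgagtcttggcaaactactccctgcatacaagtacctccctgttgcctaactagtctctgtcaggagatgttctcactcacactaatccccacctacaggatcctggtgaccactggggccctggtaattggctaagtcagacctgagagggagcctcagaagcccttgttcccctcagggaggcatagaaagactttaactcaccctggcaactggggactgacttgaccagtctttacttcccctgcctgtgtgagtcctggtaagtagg

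Olfr452 and Olfr544 had 0 CG dinucleotides in the window, Vmn1r43 had 1 and Olfr1418 had 2. G and C made up 37.7% of the window in Olfr452, 45.0% in Olfr1418, 44.0% in Vmn1r43 and 51.7% in Olfr544. The values of Olfr1418, Vmn1r43 and Olfr544 lie above the upper quartile of receptor windows, 39.3%, so these windows are not typical. The ATG stood at the annotated start in Olfr452 and Olfr1418, so their annotation begins at the coding sequence, and it did not in Vmn1r43 or Olfr544.

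Receptor start windows were poor in G and C. Among 1217 receptor genes with a window, the median G and C content was 35.7%, against 57.7% among 15718 remaining genes. The median number of CG dinucleotides was 1 in receptor windows and 16 in remaining windows. No CG was found in 31.9% of receptor windows (388 of 1217), against 2.75% of remaining windows and 11.2% of the windows of other genes without RNA reads. An ATG at the annotated start was found in 76.3% of receptor windows (928) and 3.61% of remaining windows, so most receptor windows start at the coding sequence and may lie downstream of the promoter. The TATA box letters TATAAA, searched on both strands, were present in 39.6% of receptor windows, 10.8% of remaining windows and 14.2% of all 27025 windows. The homeodomain core TAATTA, the kind of site bound by the receptor regulators Lhx2 and Emx2, was present in 17.2% of receptor windows, 3.53% of remaining windows and 5.31% of all windows. In the windows of other genes without RNA reads, TATAAA was present in 21.8% and TAATTA in 6.40%. A further searched motif, richer in G and C and the kind of site bound by the receptor regulator Ebf1, went the other way. It was present in 0.411% of receptor windows (5), 0.999% of remaining windows and 0.914% of all windows. Its share was 0.816% in the windows of other genes without RNA reads. Matches of TATAAA and TAATTA may overlap, and none of the searched motifs occurred in the 4 printed windows. A match in windows so rich in A and T is a description of letters only.

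**Figure D1:**
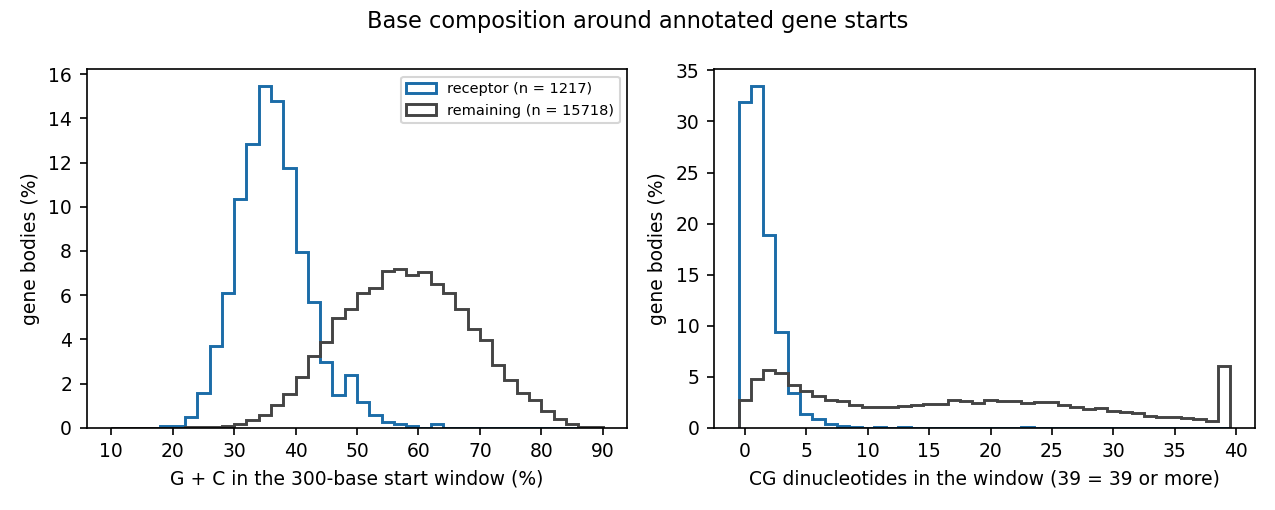
G and C content (left, percent of bases) and number of CG dinucleotides (right) in the 300-base windows around annotated starts, as the percent of 1217 receptor genes (blue) and 15718 remaining genes (grey). The receptor windows peak near their median of 35.7% G and C with a median of 1 CG, and the remaining windows are centred on 57.7% with a median of 16.

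The chromatin table holds 1 signed score per gene body in 3 columns, 1 for H3K27me3 and 2 for H3K36me2 (called sample 1 and sample 2). The table does not say which libraries entered a score or which condition was set over which, so a score above 0 gives no direction between sgNSD3 and sgControl. The columns carry no replicate values, and the scores could only be described. A score of the same gene body in the 2 H3K36me2 columns is the nearest available thing to a repeat.

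Receptor gene bodies sat high in the H3K27me3 column and low in both H3K36me2 columns. The median deposited H3K27me3 score was 0.0373 for receptors (quartiles −0.001 and 0.0944), against −0.0264 for the remaining gene bodies (quartiles −0.0675 and 0.014). For H3K36me2 the median was 0.0501 for receptors and 0.0771 for the remaining gene bodies in sample 1, and 0.079 for receptors and 0.126 for the remaining in sample 2. H3K27me3 scores were above 0 for 73.9% of receptors and 28.6% of the remaining gene bodies. H3K36me2 scores were above 0 for most gene bodies of either kind, at 82.6% of receptors and 89.9% of the remaining in sample 1, and at 86.7% of receptors and 92.7% of the remaining in sample 2.

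Of the 1425 receptors, 1227 (86.1%) lay above the remaining gene bodies' H3K27me3 median. The exact Clopper-Pearson 95% interval of that share was 84.2% to 87.9%, and it covers only the counting of gene bodies, which are neighbours in clusters and not replicates. Only 428 receptors (30.04%, interval 27.7% to 32.5%) lay above the remaining median in H3K36me2 sample 1, and 380 (26.7%, interval 24.4% to 29.04%) in sample 2. Receptors made up 6.35% of all gene bodies but 14.9% of the 2245 gene bodies with the highest H3K27me3 scores (334) and 0.891% of the 2245 with the lowest (20). In H3K36me2 sample 1 they made up 10.8% of the 2245 lowest (243) and 1.83% of the 2245 highest (41), and in sample 2 they made up 11.0% of the lowest (246) and 2.09% of the highest (47). The pattern of an H3K27me3 score above and both H3K36me2 scores below the remaining medians was met by 633 receptors (44.4%) and by 17.04% of the remaining gene bodies.

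The 3 receptor families had H3K27me3 medians within a narrow range. Medians of the deposited H3K27me3 score were 0.0391 for Olfr, 0.0343 for Vmn1r and 0.0436 for Vmn2r, and 85.5%, 89.0% and 86.7% of their members lay above the remaining median. In H3K36me2 sample 1 the medians were 0.0515 for Olfr, 0.038 for Vmn1r and 0.0435 for Vmn2r, with 32.9%, 19.5% and 21.7% of members above the remaining median. In sample 2 they were 0.084, 0.0711 and 0.0799 in the same family order, with 27.7%, 25% and 20% above it.

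In H3K36me2 the receptors were close to other genes that gave no RNA reads. The receptors were nearly all silent in these cells, so they were also set against the 3527 other gene bodies whose genes had 0 RNA reads in all 6 libraries. Those had median deposited scores of 0.0095 for H3K27me3, 0.0499 for H3K36me2 sample 1 and 0.0814 for sample 2. Receptors lay above these medians in 70.6%, 50.2% and 49.3% of cases. In H3K36me2 they thus fell on either side of the median of other silent genes about equally often. In H3K27me3 they remained the higher group by median. The receptors' 95th percentile of H3K27me3 was the lower one, at 0.175, against 0.206 for the other silent gene bodies. An H3K27me3 score of exactly 0 was held by 0.912% of receptors and 12.4% of the other silent gene bodies. With scores of 0 left out of the other silent genes only, all 1425 receptors being kept, receptors lay above those medians in 59.8%, 41.1% and 40.9% of cases. The combined pattern of high H3K27me3 and low H3K36me2 was met by 44.4% of receptors and 43.1% of other silent gene bodies. Zinc finger (Zfp) gene bodies (359), chosen by symbol whether silent or not, had medians of −0.0275, 0.0708 and 0.121, close to all remaining gene bodies.

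**Figure D2:**
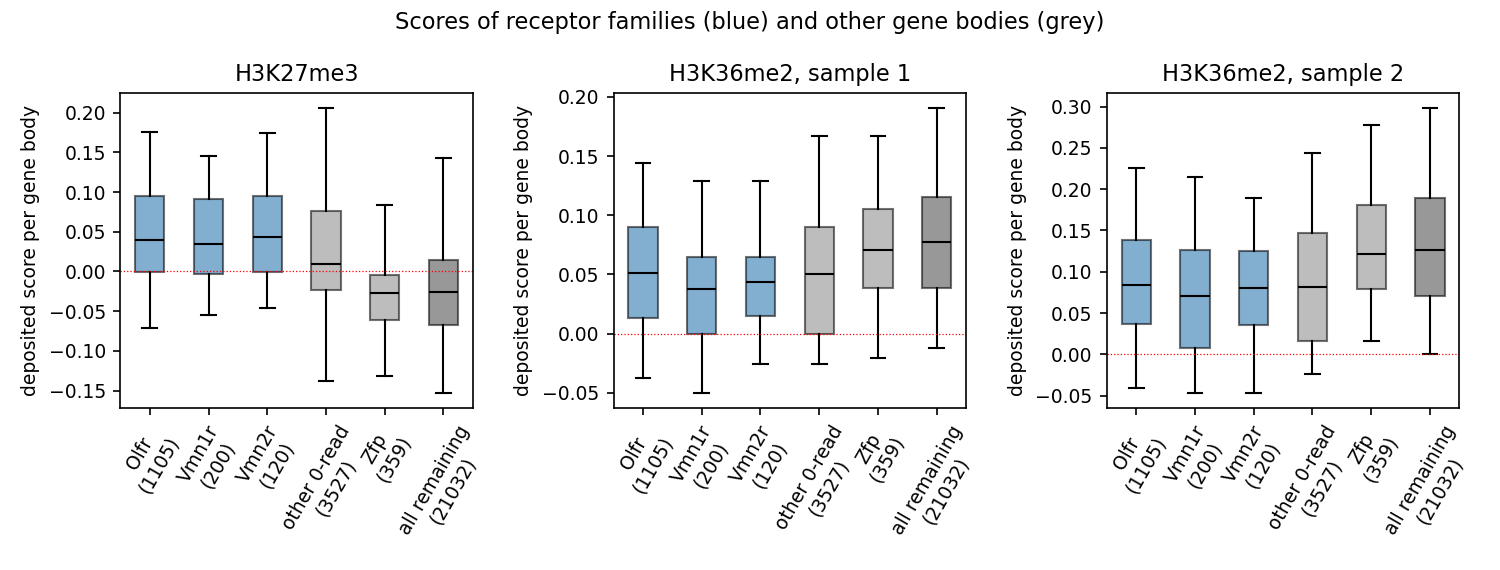
Deposited scores per gene body in the 3 columns for the receptor families (blue) and for other gene bodies (grey), with the number of gene bodies in brackets. Boxes give the quartiles and median, whiskers the 5th and 95th percentiles, and the dotted line marks 0. The receptor medians for H3K27me3 (0.0343 to 0.0436) stand above all 3 grey groups, and for H3K36me2 they stand near the other genes with 0 RNA reads.

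Olfr and Vmn1r gene bodies are short, and across all receptors together the scores showed almost no rank relation with length. The median RefSeq gene length was 948 bases for Olfr, 924 for Vmn1r and 24640.5 for Vmn2r, whose genes have long introns, against 18885.5 for the remaining genes. Across receptors Spearman's rho between length and score was −0.005 for H3K27me3, 0.027 for H3K36me2 sample 1 and −0.005 for sample 2, as a description over 1425 gene bodies. Within the 120 Vmn2r gene bodies it was 0.028, 0.207 and 0.093 for the same columns. The 946 receptors of up to 1000 bases had a median H3K27me3 score of 0.0383, and the 76 of over 20000 and up to 50000 bases had 0.0445. The interquartile range of H3K27me3 was 0.0963 up to 1000 bases and 0.0984 between 20000 and 50000, but 0.0646 for the 51 receptors between 10000 and 20000 bases. For H3K36me2 sample 1 the interquartile range was 0.0729 up to 1000 bases, 0.0468 between 10000 and 20000 and 0.0547 between 20000 and 50000. At up to 1000 bases the receptor median of 0.0383 stood against 0 for both the remaining and the other silent gene bodies, of which 22.1% and 36.04% were at exactly 0. Above 50000 bases the order with other silent genes was turned round, with 0.0568 for 7 receptors and 0.0728 for 378 other silent gene bodies. Gene bodies of very different length also shared a value: in H3K36me2 sample 1, a score of 0.0133 was held by 16 receptors of 903 to 23841 bases and by 54 gene bodies of 493 to 1098179 bases in all.

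**Figure D3:**
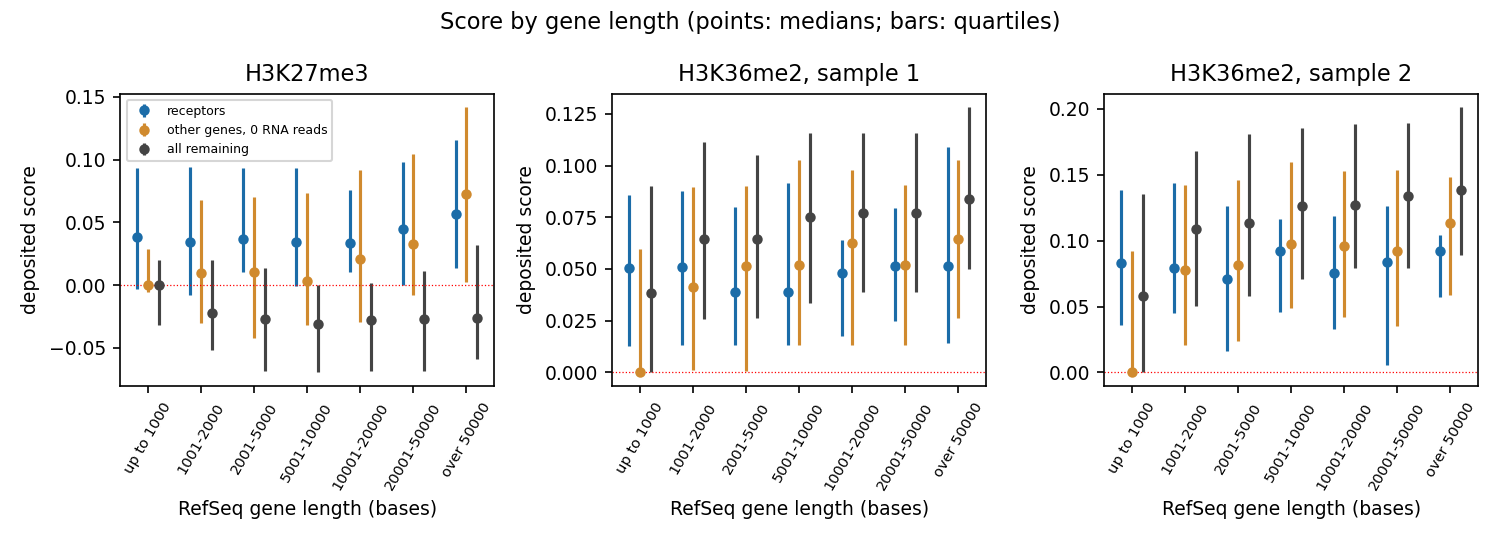
Median deposited score (points) with quartiles (bars) by RefSeq gene length in bases, for receptors (blue), other genes with 0 RNA reads (orange) and all remaining genes (dark grey). For H3K27me3 the receptor points stay between 0.0338 and 0.0568 at every length, the remaining points lie between −0.0307 and 0, and the other silent genes reach 0.0728 above 50000 bases.

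Most receptors lie in clusters, and the H3K27me3 pattern was found in most of the large ones. Joining receptors at most 1000000 bases apart gave 68 clusters on 19 chromosomes, of which 28 had at least 10 members and together held 1296 receptors (90.9%), and 16 clusters were a single receptor. Chromosomes 7, 2 and 9 carried 389, 284 and 131 receptors, which is 56.4% of all. The cluster median of H3K27me3 was above the remaining gene bodies' median in 28 of 28 large clusters and above 0 in 26. In the cluster from Olfr1396 to Olfr1380 the margin was very small, at −0.0247 against −0.0264. There 31.6% of members were above 0, close to the 28.6% of the remaining gene bodies. The cluster median of H3K36me2 was above the remaining median in 2 of 28 for sample 1 and 1 of 28 for sample 2. On 14 of the 14 chromosomes with at least 10 receptors, the receptor median of H3K27me3 was above the median of the remaining gene bodies of the same chromosome, and for H3K36me2 this held on 0 of 14 in either sample.

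The highest H3K27me3 median among large clusters was 0.122 for the 13 receptors from Olfr1357 to Vmn2r83 (chr10:78611669-79492154). Next came the 10 Vmn2r genes from Vmn2r8 to Vmn2r17 (chr5:108797193-109453387) at 0.0838 and the 95 genes from Olfr160 to Olfr986 (chr9:37711348-40188094) at 0.0744. The lowest medians were −0.0247 for the 19 genes from Olfr1396 to Olfr1380 (chr11:49112777-49564858), −0.0099 for the 19 from Olfr16 to Olfr220 (chr1:172956768-174449602) and 0.011 for the 23 from Olfr30 to Olfr225 (chr11:58454915-59614225). The interquartile range of the cluster from Olfr1396 to Olfr1380, −0.0459 to 0.0146, did not overlap that of any of the 3 highest clusters. Those of the other 2 low clusters, −0.0203 to 0.0611 and −0.0943 to 0.115, overlapped all 3.

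The largest cluster, 220 receptors from Olfr987 to Olfr1272 (chr2:85330967-90282573), had median scores of 0.05 for H3K27me3 and of 0.0389 and 0.0894 for the 2 H3K36me2 columns. The 128 class I odorant receptors from Olfr543 to Olfr692 (chr7:102476773-105369317), the receptor class that mammals share with fish, had 0.0318, 0.0412 and 0.0697. In H3K36me2 sample 1 the highest cluster medians were 0.0898 (Olfr1396 to Olfr1380), 0.0776 (Olfr459 to Olfr47) and 0.0695 (Olfr24 to Olfr18), and the lowest were 0.0002 (Vmn1r91 to Vmn1r183), 0.0261 (Vmn1r55 to Vmn1r89) and 0.0324 (Olfr722 to Olfr1507). In sample 2 the Olfr459 to Olfr47 cluster was highest at 0.136 and the Vmn1r91 to Vmn1r183 cluster again lowest at 0.0143. The cluster from Olfr1396 to Olfr1380 thus had both the lowest H3K27me3 and the highest H3K36me2 sample 1 median, but it ranked in the middle in sample 2, at 0.092.

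**Figure D4:**
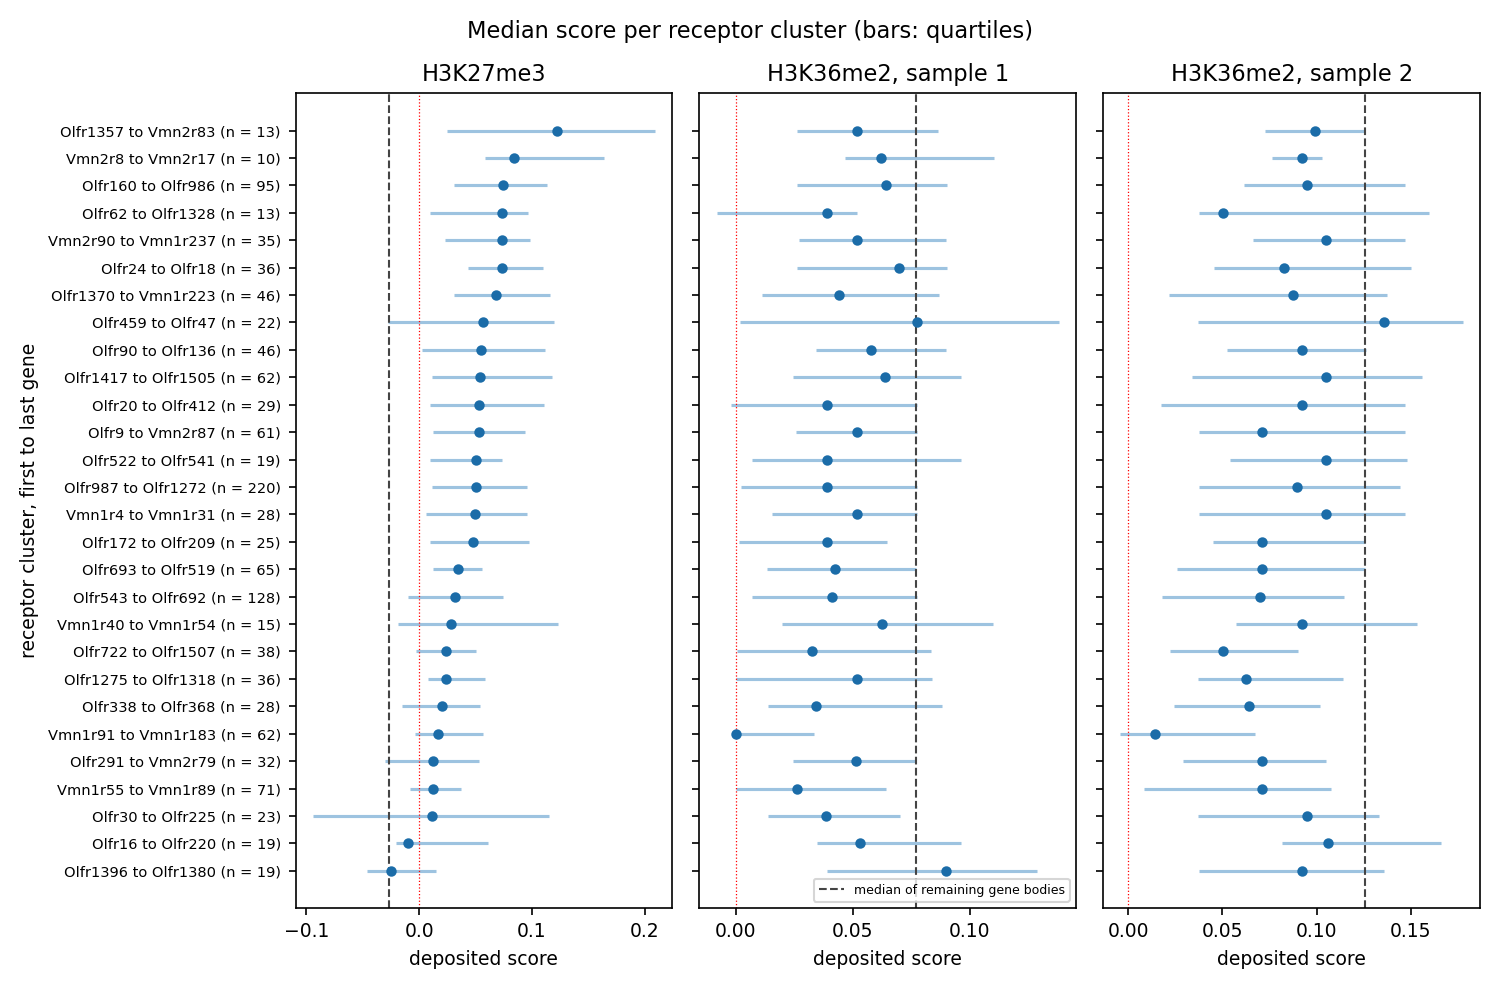
Median deposited score (points) and quartiles (bars) of the 28 receptor clusters with at least 10 members, ordered by H3K27me3, with the median of the remaining gene bodies as a dashed line and 0 as a dotted line. All 28 H3K27me3 medians lie right of the dashed line, and 26 of 28 and 27 of 28 H3K36me2 medians lie left of it in samples 1 and 2.

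The 335 other gene bodies that lie inside receptor clusters had lower H3K27me3 scores than the receptors around them. Their medians were 0 for H3K27me3, 0.0516 for H3K36me2 sample 1 and 0.1 for sample 2. Receptors lay above these medians in 73.9%, 45.9% and 40.2% of cases. The 120 of these gene bodies whose genes had 0 RNA reads had an H3K27me3 median of 0.0176, below that of the receptors, but 20.8% of them were at exactly 0. Without scores of 0 the order was turned round, with medians of 0.0404 for the receptors and 0.0508 for these silent genes (95 gene bodies). Receptors outside the large clusters (129) had an H3K27me3 median of 0.0464, against 0.037 for the 1296 inside. Neighbouring receptors resembled each other weakly: over 1357 neighbouring pairs Spearman's rho was 0.149 for H3K27me3, 0.067 for H3K36me2 sample 1 and 0.051 for sample 2, against 0.212, 0.177 and 0.182 over 19805 pairs of remaining gene bodies.

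The Vmn1r cluster from Vmn1r91 to Vmn1r183 (chr7:20101158-24055691) held most of the scores of 0. Of 19 receptors with a score of exactly 0 in at least 1 column, 16 were Vmn1r, 2 were Vmn2r and 1 was Olfr1506, 18 lay on chromosome 7, and 15 lay in this cluster of 62 Vmn1r genes. There were 11 receptors at 0 in every column (0.772%), among them Vmn1r135, Vmn1r137 and Vmn1r139, against 451 of the remaining gene bodies (2.14%). How reads that match several near-identical receptor copies were handled is not stated in the sources used here, so the values of single receptors in such arrays are uncertain.

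The 2 H3K36me2 columns ranked single receptors differently. Over the 1425 receptors Spearman's rho between sample 1 and sample 2 was 0.061, against 0.217 over the remaining gene bodies and 0.402 over the other silent ones. Without scores of 0 these values were 0.042, 0.164 and 0.229. The rank of a single receptor in one H3K36me2 column thus said little about its rank in the other. H3K27me3 and H3K36me2 scores were also nearly unrelated across receptors, with rho of 0.054 for sample 1 and 0.033 for sample 2, against −0.11 and −0.116 across the remaining gene bodies.

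The receptors at the ends of the range were as follows. In the authors' deposited table Olfr452 (chr6:42790041-42790994) had the highest receptor H3K27me3 score, 0.418, with 0.231 in H3K36me2 sample 1 and 0.0373 in sample 2. It was followed in the authors' deposited table by Olfr1453 at 0.385, the pseudogene Olfr721-ps1 at 0.381, Olfr171 at 0.380 and Olfr97 at 0.365. The lowest H3K27me3 score of the authors' deposited table among receptors was that of Olfr1418 (chr19:11854995-11855951), at −0.303, followed by Olfr70 at −0.235, Olfr548-ps1 at −0.213, Olfr324 at −0.205 and Olfr325 at −0.188. Olfr1418 and Olfr1453 belong to the same cluster on chromosome 19, and Olfr324 and Olfr325 are neighbours in the cluster from Olfr30 to Olfr225.

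For H3K36me2 sample 1 the authors' deposited table has its highest receptor scores at Olfr1459 (0.320), Olfr51 (0.244), Olfr221 (0.235), Olfr452 (0.231) and Olfr718-ps1 (0.208). Olfr1459, the first of these, had −0.0645 in sample 2 in the authors' deposited table. The lowest sample 1 scores in the authors' deposited table were those of Olfr346 and Olfr1121 (both −0.127), Olfr827 (−0.117), Olfr531 (−0.114) and Olfr285 (−0.102). In sample 2 the authors' deposited table has Vmn1r43 (chr6:89869461-89870529) highest at 0.586, then Olfr94 (0.476), Olfr401 (0.421), Vmn1r228 (0.387) and Olfr498 (0.378). The lowest sample 2 scores in the authors' deposited table were those of Olfr1265 (−0.128), Olfr1402 (−0.119), Vmn2r13 (−0.111), Vmn1r208 and Olfr905 (both −0.106). No receptor was among the 5 highest, or among the 5 lowest, of both H3K36me2 columns.

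Receptors with CG-poor starts had the higher H3K27me3 scores. The median deposited H3K27me3 score was 0.0487 for the 388 receptors with no CG in the start window, 0.0435 for the 637 with 1 or 2, 0.0191 for the 172 with 3 to 5, and −0.0185 for the 20 with 6 or more. The remaining gene bodies ran in the same order, with medians of 0.0239, 0, −0.0089 and −0.03. The receptor median was above that of other silent genes at 0 CG (0.0487 against 0.0342), 1 to 2 CG (0.0435 against 0.0189) and 3 to 5 CG (0.0191 against 0.008). At 6 or more CG, with only 20 receptors, the receptor median was below that of other silent genes (−0.0185 against 0.011). H3K36me2 showed no such order across receptors, with sample 1 medians of 0.0484, 0.0507, 0.0388 and 0.0706 from the lowest to the highest CG class. The part of base composition in the scores was not tested.

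RNA gave the other readout. Recovered reads numbered 20294828 to 21863833 per library, and 2 receptors were matched to no RNA row. Nsd3 itself was 1.51-fold higher in the libraries labelled sgNSD3, at 21946 ± 94.9 normalized counts, against 14548 ± 137.4 in the libraries labelled sgControl (SD, n = 3 each; limma, Benjamini-Hochberg adjusted p = 5.86e-14), so directions below rest on the labels. The authors' column names mark the RNA libraries labelled sgNSD3 as KO. Read counts do not show whether a guide disrupted the protein. The mesenchymal markers Col1a1, Fn1 and Vim were abundant, at a summed 870427 to 875492 normalized counts in libraries labelled sgNSD3 and 723301 to 767471 in libraries labelled sgControl. The 5 epithelial markers summed to 157.1 to 183.8 in libraries labelled sgNSD3 and 239.5 to 292.5 in those labelled sgControl. Epcam was at 0 reads in every library, and Krt14 was lower, at 139.6 ± 14.6 in libraries labelled sgNSD3 and 222.7 ± 30.8 in those labelled sgControl (SD, n = 3 each; limma, Benjamini-Hochberg adjusted p = 0.000135). The 5 neuronal markers summed to 1441 to 1510 in libraries labelled sgNSD3 and 1351 to 1382 in those labelled sgControl. Snap25 was at 0, Map2 averaged 1293 in libraries labelled sgNSD3 and 1250 in those labelled sgControl, and Tubb3 was higher, at 180.2 ± 15.8 in libraries labelled sgNSD3 and 108.5 ± 17.1 in those labelled sgControl (SD, n = 3 each; limma, Benjamini-Hochberg adjusted p = 0.000108). The 3 leukocyte markers summed to 61.0 to 74.3 in libraries labelled sgNSD3 and 71.03 to 85.2 in those labelled sgControl, nearly all Cd68, with Cd3e at 0. The part of other cell types in the receptor RNA was not tested. In the bulk RNA, fewer cells of a type and less RNA per cell cannot be told apart.

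The receptor genes were almost entirely silent. Of 1423 receptor genes with an RNA row, 1237 (86.9%) had 0 reads in all 6 libraries, against 17% of 20747 remaining genes. A count of 0 allows up to 3 reads, or 0.137 to 0.148 reads per 1000000 reads of a library (RPM), and covers counting error only. At least 1 read was found for 186 receptor genes, namely 132 of 1103 Olfr, 28 of 200 Vmn1r and 26 of 120 Vmn2r, and a read in every library for 30. Those 186 had a median H3K27me3 score of 0.0226, against 0.0407 for the 1237 without a read, and H3K36me2 medians of 0.0634 and 0.0921, against 0.0433 and 0.0758.

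Receptor transcripts made up 25.2, 26.1 and 25.6 RPM in the libraries labelled sgNSD3, against 28.6, 29.8 and 30.8 in those labelled sgControl. In normalized counts their sum was 537.8 ± 8.71 in libraries labelled sgNSD3 and 622.5 ± 10.8 in those labelled sgControl (SD, n = 3 each), and the groups did not overlap. Without Olfr1033 the sums were 505.4, 524.5 and 514.2 in libraries labelled sgNSD3, against 512.9, 547.4 and 591.7 in those labelled sgControl, and the groups overlapped. The 10 highest receptor genes held 70.9% of all receptor counts.

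Of 14 receptor genes (12 Olfr and 2 Vmn2r) with a mean of at least 8 normalized counts, the level needed to enter the test, 0 were called higher and 1 was called lower in libraries labelled sgNSD3 (limma, Benjamini-Hochberg adjusted p under 0.05). Of all 18263 genes tested, 11.9% were called, 5.44% higher and 6.44% lower, so a single call among 14 receptors is near the background. At an unadjusted p under 0.05 there were 2 receptors, both lower. The median difference of the 14 was −0.02 on the deposited log2 scale, against 0.00 for all genes tested. These 14 are 0.984% of the receptor genes and passed the filter on their level, so they do not speak for the rest.

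Olfr1033 (chr2:86020640-86044808) was the receptor that changed. It had 23.8, 22.1 and 23.5 normalized counts in the libraries labelled sgNSD3, against 100.3, 72.7 and 42.6 in those labelled sgControl. The groups did not overlap, and the sgControl libraries were far more spread than the sgNSD3 ones. The mean was 23.1 ± 0.915 in libraries labelled sgNSD3 and 71.9 ± 28.8 in those labelled sgControl (SD, n = 3 each), which is 3.11-fold lower. On the scale of log2(normalized count + 1) the change was −1.51 ± 0.23 (SE), and it passed on the deposited scale (limma, Benjamini-Hochberg adjusted p = 9.8e-05). In the authors' deposited table Olfr1033 had scores of 0.22 for H3K27me3, 0.141 for H3K36me2 sample 1 and 0.0034 for sample 2. It lies within the largest receptor cluster, and the nearest gene with tested RNA, Lrrc55, is 822 kb away, with 10.2 normalized counts in libraries labelled sgNSD3 and 10.1 in those labelled sgControl.

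Olfr544, an odorant receptor known to bind azelaic acid, had the highest RNA of all receptors. Its normalized counts were 95.1, 90.1 and 81.1 in libraries labelled sgNSD3, against 104.5, 109.1 and 106.6 in those labelled sgControl. The groups did not overlap, but the difference did not pass the threshold (limma, Benjamini-Hochberg adjusted p = 0.19). Its neighbours Olfr543 and Olfr545 are the next genes along the class I cluster on chromosome 7. Olfr543 had 48.6, 47.0 and 39.1 normalized counts in libraries labelled sgNSD3, against 51.2, 49.8 and 50.7 in those labelled sgControl, and the groups did not overlap. Olfr545 had 40.3, 59.4 and 53.8 in libraries labelled sgNSD3, against 52.2, 54.5 and 47.7 in those labelled sgControl, and the groups overlapped. Neither gene passed the threshold (limma, Benjamini-Hochberg adjusted p = 0.598 for Olfr543 and 0.968 for Olfr545). These 3 adjacent genes lie beside Rrm1, a subunit of ribonucleotide reductase, which is 7.0 kb from Olfr543 and had 5376 normalized counts in libraries labelled sgNSD3, against 5918 in those labelled sgControl (limma, Benjamini-Hochberg adjusted p = 0.00205). The sources used here do not state whether the RNA libraries kept strand, and the part of neighbouring transcription in these reads was not tested.

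The other receptors with the most RNA did not pass the threshold. Olfr1373 had 36.2, 54.7 and 46.9 normalized counts in libraries labelled sgNSD3, against 43.9, 48.8 and 54.8 in those labelled sgControl, with overlapping groups. It lies 5.75 kb from the pseudogene Olfr1372-ps1, which is not a member and was lower, at 333.1 ± 13.4 in libraries labelled sgNSD3 and 396.3 ± 34.6 in those labelled sgControl (SD, n = 3 each; limma, Benjamini-Hochberg adjusted p = 0.0278). Olfr455 had 54.8, 44.1 and 46.9 normalized counts in libraries labelled sgNSD3, against 37.6, 29.7 and 65.0 in those labelled sgControl, with overlapping groups. Olfr56 had 18.6, 20.1 and 18.6 in libraries labelled sgNSD3, against 18.8, 29.7 and 27.4 in those labelled sgControl, where 1 library lay within the sgNSD3 range.

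Olfr920, which lies 9.46 kb from Vwa5a, had 20.7, 23.0 and 24.4 normalized counts in libraries labelled sgNSD3, against 15.7, 23.9 and 24.4 in those labelled sgControl. Olfr267, 11.5 kb from Ecpas, had 15.5, 16.3 and 15.6 in libraries labelled sgNSD3, against 19.8, 17.2 and 19.3 in those labelled sgControl. Vmn2r110 was the highest vomeronasal receptor, with 11.4, 11.5 and 9.78 in libraries labelled sgNSD3, against 11.5, 13.4 and 12.2 in those labelled sgControl. None of these 3 passed the threshold, and the groups of Olfr920 and Vmn2r110 overlapped while those of Olfr267 did not. The remaining tested receptors (Olfr456, Olfr90, Olfr457 and Vmn2r1) had means of 8.52 to 11.4 normalized counts in libraries labelled sgNSD3 and 8.97 to 11.7 in those labelled sgControl.

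**Figure D5:**
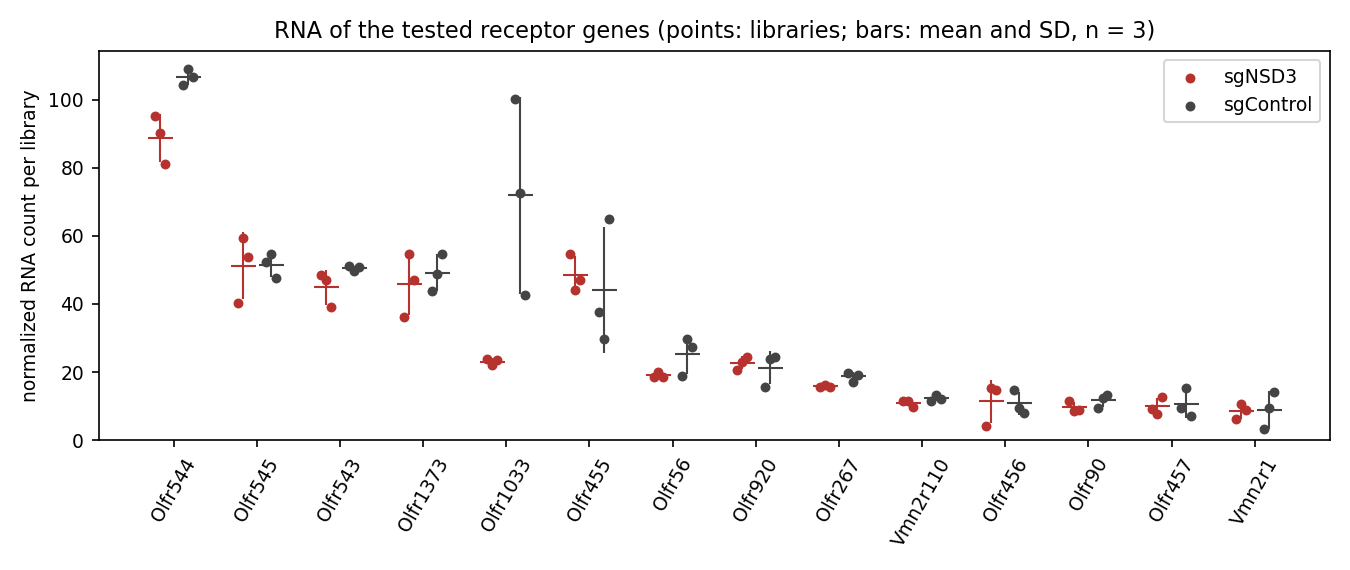
Normalized RNA counts of the 14 tested receptor genes in each library labelled sgNSD3 (red, left) and sgControl (grey, right), with the mean and SD (n = 3). Olfr1033 is the one receptor called by limma, with 22.1 to 23.8 counts in sgNSD3 libraries and 42.6 to 100.3 in sgControl libraries.

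The genes that mark olfactory and vomeronasal neurons were partly present. Of 15 olfactory sensory neuron markers, the channel genes Cnga2 and Ano2 and the receptor transporter Rtp1 were at 0 reads in all 6 libraries, and Omp, the olfactory marker protein, averaged 3.97 normalized counts in libraries labelled sgNSD3 and 3.38 in those labelled sgControl. Gnal, the olfactory G protein subunit, averaged 84.5 in libraries labelled sgNSD3 and 88.2 in those labelled sgControl, and Ric8b, its chaperone, averaged 763.4 in libraries labelled sgNSD3 and 737.3 in those labelled sgControl. Of these 15, 7 were high enough to test, of which 1 rose and 0 fell, where 5.44% of all genes tested were called higher. Adcy3, the olfactory adenylyl cyclase that also serves primary cilia, rose 1.23-fold (750.3 ± 27.1 in libraries labelled sgNSD3 and 611.5 ± 35.1 in those labelled sgControl, SD, n = 3 each, limma, Benjamini-Hochberg adjusted p = 0.000554). The summed level of the list was 2066 to 2091 normalized counts in libraries labelled sgNSD3 and 1911 to 1978 in those labelled sgControl. The difference in Adcy3 alone is about as large as the difference between these sums. Of 6 vomeronasal markers, Trpc2 was at 0 in all libraries, and of 3 tested, 0 rose and 2 fell, where 6.44% of all genes tested were called lower. Gnao1 was 1.30-fold lower (828.7 ± 15.6 in libraries labelled sgNSD3 and 1078 ± 23.3 in those labelled sgControl; adjusted p = 1.65e-06), and Gnai2 was 1.13-fold lower (adjusted p = 0.000545), both SD with n = 3 each and limma with Benjamini-Hochberg adjustment. Both G protein subunits are also made in many other cell types.

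Regulators of receptor choice and of the heterochromatin over receptor clusters were mostly present. Of 25 such genes, 24 were tested, 2 rose and 1 fell, which is near the 11.9% called among all genes tested and so no result about this list. The gene too low to test, Ebf1, averaged 6.25 normalized counts in libraries labelled sgNSD3 and 3.71 in those labelled sgControl. Besides Adcy3, the chromatin remodeler Atrx rose 1.15-fold in libraries labelled sgNSD3 (limma, Benjamini-Hochberg adjusted p = 0.000165), and Atf5, a stress-response factor that stabilises receptor choice, was 1.14-fold lower (adjusted p = 0.0366). Lhx2 had a mean of 94.1 normalized counts in libraries labelled sgNSD3 and 94.2 in those labelled sgControl, and its partner Ldb1 had 2564 in libraries labelled sgNSD3 and 2543 in those labelled sgControl. The lamin B receptor Lbr, which tethers heterochromatin to the nuclear envelope, had 1236 in libraries labelled sgNSD3 and 1261 in those labelled sgControl. None of these 3 passed the threshold. Of 18 genes for receptor trafficking and signalling, which overlap the lists above, 9 were tested, and the calls were again Adcy3, higher, and Gnao1 and Gnai2, lower, where 11.9% of all genes tested were called. Of 13 enzymes and subunits for H3K36 and H3K27 methylation, 5 rose and 0 fell, where 5.44% of all genes tested were called higher and 6.44% lower. Besides Nsd3 these were Nsd1 (1.07-fold), Ash1l (1.09-fold), the PRC2 subunit Suz12 (1.10-fold) and the H3K27 demethylase Kdm6b (1.08-fold), with limma adjusted p between 0.0239 and 0.0369. Ezh2 averaged 486.3 normalized counts in libraries labelled sgNSD3 and 505.5 in those labelled sgControl and did not pass.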

How the data were processed

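Per the submitters' processing notes, the tools named were HISAT2, featureCounts and DESeq2 with mm10, and no versions or settings were given. The RNA table holds log2 values deposited by the authors on a variance-stabilised scale, on which 0 reads sit at 8.45. These were turned back into reads (100% of values within 0.05 of a whole number) and normalized counts. The chromatin table holds 1 signed score per gene body in each of 3 columns, as deposited by the authors. The sources used here do not state how it was computed, so the scores were described without a test between conditions.

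The RNA comparison used limma (3.58.1, under R 4.3.3; lmFit and eBayes with a trend) on the deposited log2 values, 3 libraries labelled sgNSD3 against 3 labelled sgControl, with Benjamini-Hochberg adjustment over 18263 of 55433 genes (mean of at least 8 normalized counts) and a threshold of 0.05. A planned minimum of log2 3 was applied as 8 normalized counts because of the offset. Folds are ratios of mean normalized counts, because the deposited scale shrinks changes at low counts. The test was checked on simulated data, with changes set only in genes with a mean of at least 32 normalized counts. Of the 14 tested receptors 6 reach that level, so the check does not cover finding changes in the others. The simulation used the same dispersion setting for every gene and both groups. It therefore does not cover a gene with spread as unequal between the groups as that of Olfr1033.

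Positions, lengths and start windows came from RefSeq GRCm38.p6, where 1421 receptors matched by symbol and 4 by synonym. A further 316 RNA rows with receptor symbols outside the members were not used. Named receptors were the 5 highest and 5 lowest per score column, the 3 highest and 3 lowest clusters, every receptor called by limma and the 10 with the highest mean RNA; Olfr1372-ps1 and Vmn2r2 were added after their values were seen. Members and lists were chosen with earlier results of these data known. The IgG sample titled for sgNSD3 carries an sgControl source label, and no IgG value was used.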

Additional observations from a re-analysis of the deposited data

How the results depend on the processing

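The share of receptors above the remaining gene bodies' median depended on the gene bodies they were set against. For H3K27me3 it was 86.1%, and it was 70.6% against other genes with 0 RNA reads, 73.9% against other gene bodies inside receptor clusters and 59.8% against other silent genes without scores of 0. The H3K27me3 median inside clusters was exactly 0, so the 73.9% repeats the share of receptors above 0. For H3K36me2 sample 1 it was 30.04%, and it was 27.6% without scores of 0, 33.8% against gene bodies of similar length, 45.9% inside clusters, 41.1% against other silent genes without scores of 0, and, on the other side of an even split, 50.2% against all other silent genes. For H3K36me2 sample 2 it was 26.7%, and it was 32.4% at similar length, 49.3% against other silent genes, 40.2% inside clusters and 40.9% against silent genes without scores of 0. The comparisons inside clusters, without the Vmn1r91 to Vmn1r183 cluster and without silent zeros were chosen after seeing the data. The causes were not tested.

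Without a filter on low counts 2 of 186 receptors were called lower, where 1004 of all 32287 genes tested were called lower. The second was Vmn2r2, which joined Olfr1033 (limma, Benjamini-Hochberg adjusted p = 0.0416). Vmn2r2 had 0 reads in the 3 libraries labelled sgNSD3, against 2.09, 3.83 and 1.01 normalized counts in those labelled sgControl. A read in every library was required for the count of 30 receptors, which was 186 for any library, 14 for a mean of 8 normalized counts, and 30 to 33 with each library left out in turn. Olfr1033 was called in 12 of 12 alternatives (limma adjusted p 1.13e-07 to 0.00152), and the 9 other named receptors in none of theirs (lowest 0.118). With the replicate number as a block, 0 receptors were called higher and 1 lower, and over all genes 1119 and 1333, against 994 and 1176 without it. Libraries sharing a number did not deviate together (correlations of 0.046, 0.0163 and −0.0134). With 3 libraries per group this cannot show whether the samples were prepared in pairs. The numbers used are those of the sample titles, and the authors' column names number the sgNSD3 libraries in another order. Leaving out 1 library gave 639 to 998 higher and 709 to 1166 lower calls over all genes. The filter on counts set how many receptors entered the RNA test, which was 14 at a mean of 8 normalized counts, 6 at 32 and 186 with no filter.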

Other observations

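The H3K36me2 median was highest for receptors close to expressed genes. The H3K36me2 sample 1 median was 0.0708 for the 76 receptors within 20 kb of a gene with tested RNA, 0.0516 for the 296 at 20 to 100 kb, 0.0507 for the 652 at 100 to 500 kb and 0.0388 for the 401 beyond 500 kb. In sample 2 the medians were 0.107, 0.0796, 0.0897 and 0.0711 in the same order, and for H3K27me3 they were 0.0399, 0.0328, 0.0506 and 0.0338, with no order by distance. Quartiles of neighbouring distance classes overlapped.

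The 73 gene bodies of other chemoreceptors (trace amine, taste and formyl peptide receptors and Ms4a genes) had the following medians, given without a test. They were 0.0358 for H3K27me3, 0.0771 for H3K36me2 sample 1 and 0.126 for sample 2, against 0.0373, 0.0501 and 0.079 for the olfactory and vomeronasal receptors. In RNA, 60 of 83 such genes were at 0 reads in all libraries and 5 had enough counts to be tested. The 17 receptor pseudogenes among the members had medians of 0.0149, 0.0643 and 0.139.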
